A study of Mus musculus with 12 samples.

Results

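The livers described here were the 6 untreated control livers of a mouse study of low-dose penicillin, set side by side as 3 with a high and 3 with a low level of immediate early genes. The split was read from the arrays themselves. A score was taken as the mean log2 level of 11 immediate early genes, each centred over all 12 arrays of the series, and a control above 1 was called high and a control below 0 low. Controls 1, 3 and 5 scored 2.15, 2.22 and 1.60 and are called the high controls. Controls 2, 4 and 6 scored -0.27, -0.83 and -0.31 and are called the low controls. The control nearest to the limit on the high side was therefore control 5, and on the low side control 2.

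All mice were male C57BL/6 animals from one supplier, with free access to food and water and equal hours of light and dark. The 6 controls received no antibiotic. The other 6 mice drank water with low-dose penicillin from weaning on, and their arrays scored -0.94 to -0.645. Livers of both groups were taken after 7 weeks of intervention, and 1 Affymetrix array was made per mouse. Neither the dose, the cage, the hour of death nor the time from death to freezing is given by the labels, which also state no reason for control livers to differ. Because the sets were chosen on these values, every high minus low difference is a description of these 6 arrays with no test. Levels are log2 of the deposited intensities and cannot be compared between genes, since each gene has its own probeset.

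Immediate early genes are switched on within minutes of a signal such as a growth factor, a hormone, handling or injury, without the need for new protein. Most encode transcription factors (Fos, Jun and Egr families) or proteins that end the response again, such as phosphatases and RNA-destabilising proteins. Their messengers are short-lived, so a tissue shows high levels only for a brief period. Heat shock chaperones are a separate rapid set, driven by heat shock factor when proteins misfold, and the unfolded protein response is its counterpart in the endoplasmic reticulum.

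Upstream sequences of 4 genes higher in the high controls are given to show the short motifs through which such signals are known to reach these genes. Each is the 250 bases before the transcription start of the gene in RefSeq, on assembly GRCm38.p6, read 5′ to 3′ on the strand of the gene, with the motif in capitals. Btg2 (chr1:134079156-134079405, minus strand), an antiproliferative gene of the score, and Dusp1 (chr17:26508473-26508722, minus strand), a phosphatase of MAP kinases, hold the cAMP response element. Hspa1b (chr17:34959239-34959488, minus strand), an inducible chaperone, holds a pair of heat shock element units. Hspa5 (chr2:34771840-34772089, plus strand), the main chaperone of the endoplasmic reticulum, holds the ER stress response element.
Btg2: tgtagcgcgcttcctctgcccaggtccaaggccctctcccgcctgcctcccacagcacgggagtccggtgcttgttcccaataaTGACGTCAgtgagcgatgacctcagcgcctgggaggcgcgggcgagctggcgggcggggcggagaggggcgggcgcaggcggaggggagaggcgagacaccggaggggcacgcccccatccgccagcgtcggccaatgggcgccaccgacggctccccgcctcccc
Dusp1: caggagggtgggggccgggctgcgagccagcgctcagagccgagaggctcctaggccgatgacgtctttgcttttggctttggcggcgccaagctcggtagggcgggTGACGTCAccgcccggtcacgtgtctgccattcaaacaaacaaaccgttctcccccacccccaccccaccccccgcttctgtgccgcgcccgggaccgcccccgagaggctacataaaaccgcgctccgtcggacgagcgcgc
Hspa1b: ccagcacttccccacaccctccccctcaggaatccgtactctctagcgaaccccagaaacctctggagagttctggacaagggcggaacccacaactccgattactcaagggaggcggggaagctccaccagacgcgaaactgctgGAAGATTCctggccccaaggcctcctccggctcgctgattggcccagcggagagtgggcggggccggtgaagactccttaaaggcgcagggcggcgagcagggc
Hspa5: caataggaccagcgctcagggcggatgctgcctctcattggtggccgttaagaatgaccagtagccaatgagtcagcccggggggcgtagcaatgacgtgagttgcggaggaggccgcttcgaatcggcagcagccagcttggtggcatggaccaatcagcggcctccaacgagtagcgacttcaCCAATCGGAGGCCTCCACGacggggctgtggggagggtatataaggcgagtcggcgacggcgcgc

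Before the results, 3 features of single arrays are given because they touch what follows. Controls 1 and 3 were the most alike of the controls (r = 0.9967 over genes, median absolute difference 0.10), and as their values were not identical each was counted as its own sample. Control 5 stood between them and the low controls for many genes. Control 6 had a high level of acute phase genes, which the liver makes in inflammation, and the list differences that moved most without it are given both ways. The 3-prime minus 5-prime signal of Gapdh, a measure of RNA integrity, was -0.11, -0.09 and -0.15 in controls 1, 3 and 5 and 0.01, -0.08 and -0.17 in controls 2, 4 and 6, so the sets overlapped. For beta-actin it was 0.975, 0.91 and 0.857 against 1.006, 0.914 and 0.872, which also overlapped. Albumin (Alb) ranged from 14.96 to 15.02 over the 6 controls, and the mean of the 10 measured of 13 hepatocyte markers ranged from -0.10 to 0.17 around the mean of all arrays. The 0.17, in control 2, came mostly from 1 marker, Ass1, at 8.75 there and 5.87 to 7.37 in the other controls.

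The score genes themselves chose the sets, and their levels show which of them carried the split. All 11 were higher on average in the high controls, 10 had no overlap between the 3 high and the 3 low arrays, and 9 differed by more than 1. Fos, a partner in the AP-1 transcription factor, was at 11.29, 11.33 and 11.85 in controls 1, 3 and 5, against 6.53, 7.46 and 6.88 in controls 2, 4 and 6 and 5.84 to 6.79 in the penicillin arrays. Egr1, a zinc finger factor, was at 13.31, 13.32 and 12.95 against 9.91, 7.996 and 8.44, a mean difference of 4.41. Btg2 was at 12.76, 12.70 and 10.15 against 8.02, 7.09 and 8.56. Here control 5 lay well below the other high controls, while for Fos it lay above them. Junb, another AP-1 partner, had the pattern of Btg2, with 10.01, 10.12 and 8.50 against 6.97, 5.58 and 7.27. Atf3, a stress-responsive repressor, had the pattern of Fos, with 8.02, 7.97 and 8.06 against 5.50, 5.47 and 5.39.

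The remaining score genes differed less. Ier2 differed by 2.13, Jun by 1.84, Zfp36, which destabilises messenger RNAs, by 1.77, and Ier3 by 1.64. Klf6, a Kruppel-like factor, differed by 0.64 without overlap. Gadd45g, a growth arrest gene, was at 9.08, 9.27 and 7.93 in the high controls against 8.67, 7.23 and 8.58, so its sets overlapped and its difference of 0.60 came from controls 1 and 3.

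**Figure D1:**
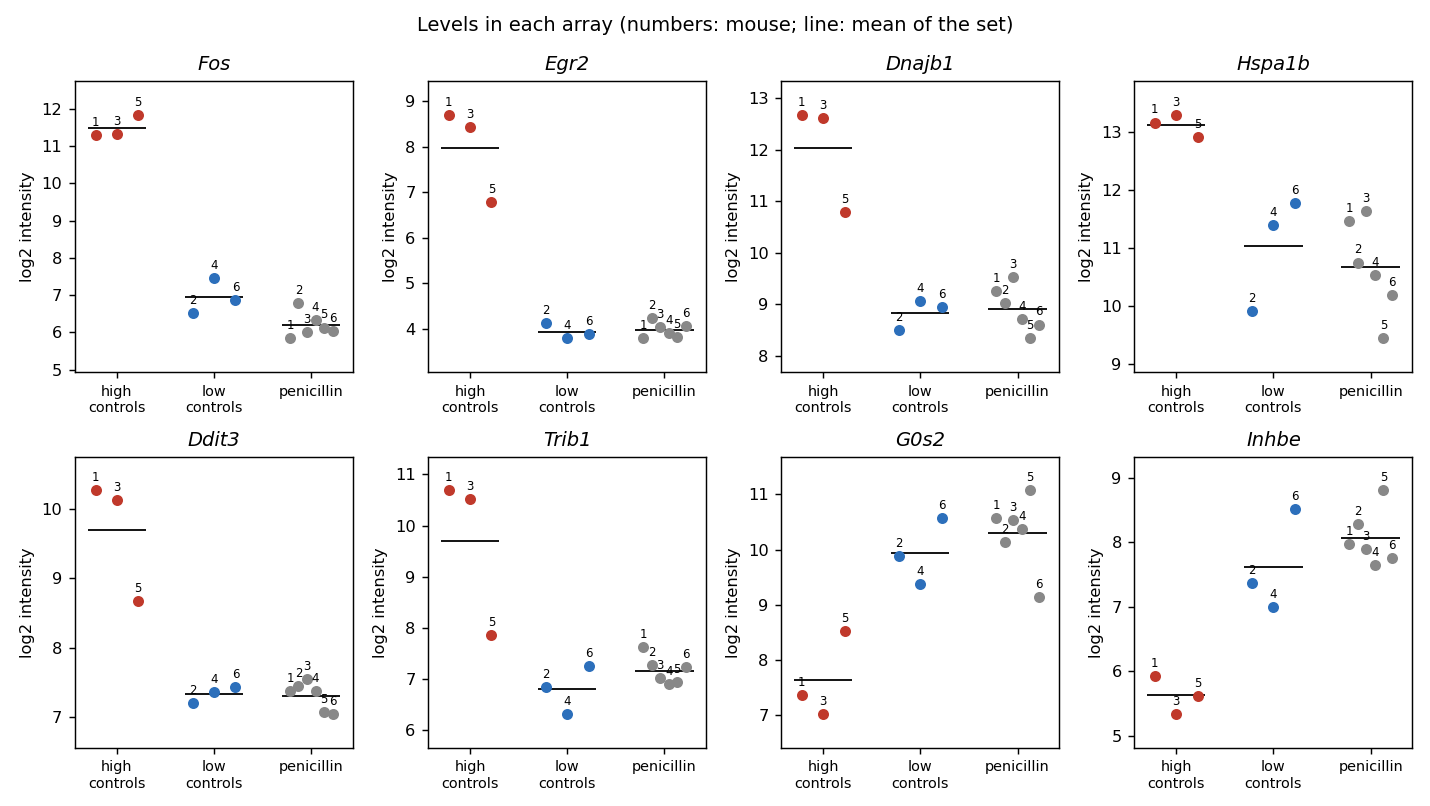
Log2 intensity of 8 genes in each of the 12 arrays, with the high controls in red, the low controls in blue and the penicillin arrays in grey, numbered by mouse; lines are means of the sets. Fos is as high in control 5 as in controls 1 and 3, whereas Egr2, Dnajb1, Ddit3 and Trib1 are lower in control 5, and G0s2 and Inhbe run the other way.

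Outside the score, the transcriptomes of the sets were close. Over 11888 genes the median high minus low difference was -0.03 and the median absolute difference 0.11, beside a median SD of 0.112 within the high and 0.134 within the low controls (n = 3 each). Only 38 genes (0.32 percent) were more than 1 higher, which is 2-fold, with no overlap between the arrays of the sets, and 24 genes (0.202 percent) were more than 1 lower. Both are referred to below as higher or lower beyond 2-fold. For Egr2, Dusp4 and Btbd19 among the higher genes and Scara3 among the lower, the dimmer set lay wholly under the filter limit, so the size of these differences is not exact. The penicillin means of Egr2, Dusp4 and Btbd19 (3.98, 4.64 and 4.53) were under the limit too. These genes thus passed the filter only through the high controls, and they are kept in the 38 and in the counts below. Cib3, Gpat3 and Cox7a1 had at least 1 high array under the limit. The 3 high arrays lay above the 3 low arrays for 839 genes (7.06 percent) and below them for 1467 (12.3 percent), whatever the size of the difference. Of both directions together, 36.4 percent were above with the values as deposited, 46.1 percent after a repeated quantile normalization (1015 above, 1187 below) and 22.9 percent with arrays centred on their medians (566 above, 1911 below). The balance of small differences thus moved with the scaling, while the beyond 2-fold counts were 36 to 40 higher and 24 to 30 lower under the same settings.

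The beyond 2-fold counts rested on single arrays in part. Without control 5 they were 88 higher and 66 lower, and without control 6 they were 76 and 40. Without control 4 the count of lower genes was 41. Set against all 9 other arrays, penicillin arrays included, the high controls were above them for 24 of the 38 higher genes and below them for 9 of the 24 lower genes. Over all genes the high controls were above all 9 for 1.93 percent and below all 9 for 2.83 percent. The 38 and 24 genes had already been required to separate from the low controls, so these shares are not a like background. Of the 839 genes with the high arrays above the low arrays, 230 were above all 9. Of the 1467 genes with the high arrays below, 337 were below all 9.

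Among transcription factors that are known to be induced rapidly but were not in the score, 28 of 30 listed were measured, and 24 were higher and 4 lower. The 3 high arrays lay above the 3 low arrays for 10 and below for none, and 6 were higher beyond 2-fold. Over all genes outside the score these shares were 7.06, 12.3 and 0.32 percent. The 10 and the 6 include Egr2, which passed the filter only through the high controls. The median difference of the list was 0.49, against -0.03 over all genes. Fosb and Fosl1 did not pass the filter on dim probesets.

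Egr2, a relative of Egr1, was at 8.70, 8.43 and 6.79 in controls 1, 3 and 5 (mean 7.98 ± 1.03, SD, n = 3) against 4.13, 3.79 and 3.88 in controls 2, 4 and 6, with 3.79 to 4.24 in the penicillin arrays. It passed the filter only through the high controls: its other 9 arrays lay under the filter limit of 4.73, the median of the probeset means. Whether it was detected in those arrays was not judged, so no size is given for its difference. Nr4a1, an orphan nuclear receptor, was at 10.41, 10.80 and 9.84 against 9.02, 7.05 and 6.60. Its low controls were themselves spread, with control 2 above the highest penicillin array (8.81). Klf4, a Kruppel-like factor, was at 7.07, 7.14 and 7.00 against 5.66, 5.66 and 5.42. In this gene the 3 high controls were nearly equal. Myc, a driver of growth, was at 9.24, 8.94 and 6.89 against 6.43, 6.40 and 6.78. Maff, a small Maf protein, had 8.23, 8.30 and 6.65 against 5.73, 5.69 and 6.59, so that for both genes control 5 was only just above the low controls. Klf10, a factor induced by TGF-beta, was higher by 1.88 on average but overlapped, as control 5 (8.34) was below control 6 (8.39).

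Rapidly induced signalling and feedback genes gave a similar picture. Of 47 listed, 43 were measured, 34 were higher and 9 lower, 19 had all high arrays above all low arrays and 2 below (Sik1 and Plk2), and 7 were higher beyond 2-fold. The median difference was 0.43. The shares over all genes were 7.06 percent above, 12.3 percent below and 0.32 percent higher beyond 2-fold. The 19 and the 7 include Dusp4, which passed the filter only through the high controls.

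Trib1, a pseudokinase that directs protein degradation, was at 10.69, 10.53 and 7.86 in controls 1, 3 and 5, against 6.83, 6.31 and 7.25 in controls 2, 4 and 6. Plk3, a polo-like kinase, was at 10.70, 10.73 and 9.28 against 8.11, 7.89 and 8.69. Dual specificity phosphatases, which switch MAP kinases off again, differed by 1.72 (Dusp6) and 1.39 (Dusp1). Dusp4 was at 6.87, 6.24 and 4.85, and its low controls (4.38 to 4.62) were under the filter limit. Dusp1, whose cAMP response element is printed above, was at 11.22, 11.19 and 10.44 against 9.87, 9.28 and 9.53. In each of these genes control 5 was the lowest of the high controls. Phlda1, a pleckstrin homology protein, was at 12.39, 12.32 and 10.90 against 10.01, 10.31 and 10.56, and a penicillin array reached 11.33. Cish, a feedback inhibitor of growth hormone and cytokine signalling, was at 10.11, 9.99 and 6.95 against 6.63, 7.14 and 7.29. Its high level was thus in controls 1 and 3, and control 5 lay within the low controls.

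Heat shock chaperones, most of them cytosolic and none in the score, were also higher. Of 29 listed, 26 were measured, 22 were higher and 4 lower, with a list median of 0.47. The high arrays lay above the low arrays for 18 (all genes: 7.06 percent) and below for none. Beyond 2-fold, 7 were higher (all genes: 0.32 percent). Hspa1a and Hspa1b, the inducible members of the family of heat shock proteins that fold new chains, have upstream sequences that match at 247 of 250 bases, and their messengers are near copies, so their probesets may not separate them. Hspa1a was at 9.36, 9.79 and 9.61 in the high controls against 5.22, 6.51 and 6.85 in the low controls. Hspa1b was at 13.16, 13.29 and 12.91 against 9.91, 11.39 and 11.77. In control 5 Hspa1a lay between the other high controls and Hspa1b below them, and the low controls were more spread (SD 0.86 and 0.98, n = 3) than the high ones (SD 0.21 and 0.19, n = 3).

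Dnajb1, the partner that delivers clients to these chaperones, was at 12.68, 12.62 and 10.80 against 8.51, 9.06 and 8.94, with 8.34 to 9.54 in the penicillin arrays. Here control 5 lay midway. Bag3, an exchange factor, differed by 1.36, Hsph1, a large relative of Hspa1b, by 1.55, Hspb1, a small chaperone, by 1.32 and Dnajb4 by 1.13. The mitochondrial chaperonins Hspd1 and Hspe1 differed by 0.23 and 0.20, also without overlap. Hspa8, the chaperone that cells always make, differed by 0.37, with 13.19, 13.32 and 13.40 against 12.74, 12.99 and 13.09. In control 5 the list mean was 0.51, near the 0.64 and 0.65 of controls 1 and 3, and in the low controls it ran from -0.47 to 0.08.

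The unfolded protein response of the endoplasmic reticulum was higher by less. All 27 listed genes were measured, 25 were higher and 2 lower, 8 had no overlap, all of them above, and none differed beyond 2-fold without overlap. The list median was 0.27, and over all genes 7.06 percent had the high arrays above the low arrays. The list mean was 0.35, 0.30 and 0.31 in controls 1, 3 and 5 against -0.25, 0.07 and 0.22 in controls 2, 4 and 6. Hspa5 was at 13.74, 13.65 and 13.54 against 12.92, 13.36 and 13.30. Creld2, an ER-resident protein, was at 11.27, 11.15 and 10.60 against 8.79, 10.22 and 10.66, so that control 6 was above control 5. Herpud1, which acts in the degradation of ER proteins, was likewise at 13.53, 13.41 and 13.10 against 11.95, 12.50 and 13.16. Control 2 was the lowest control for these 3 genes, and without it the difference of the list mean went from 0.31 to 0.18. For Creld2 and Herpud1 controls 5 and 6 were within 0.1 of each other.

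The integrated stress response, which raises Atf4 when translation is held back, had 19 of 22 genes measured, 15 higher and 4 lower. Its list median was 0.08, and 6 genes had the high arrays above the low arrays (all genes: 7.06 percent). Ddit3, a factor known as CHOP, was the exception in size, with 10.27, 10.13 and 8.68 in the high controls against 7.20, 7.37 and 7.43 in the low controls and 7.04 to 7.54 in the penicillin arrays. Ppp1r15a, which restores translation, was at 8.24, 8.33 and 7.79 against 7.23, 7.18 and 7.03. Atf4 itself differed by 0.63. All 3 genes had no overlap.

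Motifs were counted in the 250 bases upstream of the start for 9605 of the 11899 genes, those with an entry in the RefSeq promoter table, on both strands. A pair of heat shock units (TTCNNGAA or GAANNTTC) was found upstream of 12.1 percent of all genes, of 10 of 22 heat shock chaperones and of 9 of the 32 higher genes with an entry. These 2 counts are not separate, as Dnajb4, Hspa1a, Hspa1b, Hspb1 and Hsph1 are in both, and Hspa1a and Hspa1b have nearly the same upstream sequence. The other higher genes with the pair were Egr2, which passed the filter only through the high controls, Rcan1, Sertad1 and Zfand2a. The cAMP response element TGACGTCA was found for 2.87 percent of all genes and for 4 of these 32 (Dusp1, Maff, Rcan1 and Zfand2a). The ER stress response element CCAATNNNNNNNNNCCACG was found for 0.167 percent of all genes and for 10 of 23 genes of the unfolded protein response. It was found for 0 of the 32 higher genes. The AP-1 site TGANTCA was found for 5.77 percent of all genes and for 5 of the 32, and the CArG box of serum response factor for 1.37 percent and for 2 of the 32 (Egr2 and Actg1). Of the 20 lower genes with an entry, none held any of these 5 motifs. Of the 9 score genes with an entry, 1 held the cAMP response element (Btg2), 1 the heat shock pair (Jun) and 1 the CArG box (Zfp36). None of the 9 held the AP-1 site or the ER stress response element. The AP-1 site is 1 base shorter than the cAMP response element, and no stretch can match both. A match is a description of letters and not a measured site, and genes of known pathways entered these lists because of what is known of them.

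Of the 38 higher genes, 27 belonged to a list used here. Further members of smaller lists and genes of no list are given next. Angptl8, a secreted regulator of lipoprotein lipase, was at 10.89, 10.96 and 10.15 in the high controls against 8.71, 8.69 and 8.48, with 1 penicillin array at 10.23. Sertad1, a cofactor of cell cycle transcription, was at 10.06, 9.87 and 8.12 against 7.46, 7.29 and 7.65. Rcan1, an inhibitor of calcineurin, was at 10.84, 10.79 and 8.76 against 8.18, 8.47 and 8.37. In the last pair control 5 was again only slightly above the low controls. Tnfrsf12a, the receptor of the cytokine TWEAK, differed by 1.57 and Ccl2, a chemokine for monocytes, by 1.51. Igfbp1, a binding protein of insulin-like growth factors made by the liver, was at 13.66, 13.85 and 13.38 against 12.71, 12.51 and 11.62, and ranged from 9.27 to 12.89 in the penicillin arrays. P4ha1, a subunit of collagen prolyl hydroxylase, was at 8.02, 8.06 and 8.13 against 6.66, 7.01 and 7.05, among the most even of the higher genes. Lpin1, an enzyme of glyceride synthesis, differed by 1.37, but a penicillin array (12.07) was above all high controls.

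Lower genes were fewer beyond 2-fold, and only 2 of the 24 belonged to a list. G0s2, an inhibitor of the lipase that empties lipid droplets, was at 7.37, 7.02 and 8.53 in controls 1, 3 and 5 (mean 7.64 ± 0.79, SD, n = 3), against 9.88, 9.38 and 10.57 in controls 2, 4 and 6 (9.94 ± 0.60, SD, n = 3) and 9.14 to 11.07 in the penicillin arrays, a 4.93-fold lower level. Inhbe, a secreted protein of the TGF-beta family made by hepatocytes, was at 5.92, 5.33 and 5.61 against 7.36, 7.00 and 8.51, with 7.64 to 8.80 in the penicillin arrays. For both genes the high controls lay below all 9 other arrays. Gpat3, an enzyme of triglyceride synthesis, was at 4.61, 4.79 and 3.73 against 5.22, 5.36 and 6.14. Chst13, a sulfotransferase, was at 5.38, 5.12 and 5.68 against 7.04, 6.61 and 7.13, and Kcnk5, a potassium channel, at 6.90, 6.93 and 7.38 against 7.88, 8.22 and 8.54. These 3 were also below all 9 other arrays, as were Dclk3, Tmem51, Zfp39 and Zfp467.

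Other lower genes reached the same levels in some penicillin arrays. Cib3, of the calcium and integrin binding family, was at 4.57, 4.86 and 5.07 against 6.60, 6.85 and 6.49, and ranged from 4.87 to 7.16 in the penicillin arrays. Fabp5, a fatty acid binding protein, was at 9.97, 9.99 and 10.58 against 11.98, 11.18 and 12.10, and ranged from 9.37 to 12.01. Sox4, Fzd7, Cox7a1, Tnfaip2, Igfbp3 and Bmf were lower by 1.15 to 1.35, and in each the lowest penicillin array was below at least 1 high control. The high controls thus lay at least in part within the range of the penicillin arrays.

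Interferon response genes were lower in controls 1 and 3. Of 22 measured of 25 listed, 21 were lower and 1 higher, and the list median was -0.56. The high arrays lay below the low arrays for 8 (all genes: 12.3 percent), and none on the list differed beyond 2-fold without overlap. Irgm2, an interferon-induced GTPase that was not on the list, was among the 24 lower genes. It was at 8.02, 7.80 and 8.72 in controls 1, 3 and 5 against 9.45, 9.21 and 8.97 in controls 2, 4 and 6. The list mean was -0.51, -0.52 and -0.09 in controls 1, 3 and 5, and 0.31, -0.17 and 0.26 in controls 2, 4 and 6, so control 5 was within the low controls. Igtp, a GTPase induced by interferon gamma, was at 8.94, 8.77 and 9.29 against 10.21, 9.61 and 9.64. Psmb8, a subunit of the immunoproteasome, was at 8.84, 8.82 and 9.13 against 9.46, 9.34 and 9.92. Irf7, a factor of the type I response, was at 7.07, 7.25 and 7.68 against 7.72, 7.74 and 8.29. The list of antigen presentation by MHC class II, whose molecules show peptides to T cells, was also lowest in controls 1 and 3. All 5 measured genes of class II were lower, by a median of 0.54 on the log2 scale, and H2-Ab1 was at 8.50, 8.54 and 9.19 against 9.64, 9.33 and 9.32.

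Class II molecules are made by few liver cells, and in a whole liver fewer cells of a type cannot be told from less RNA per cell. Markers of other cell types are therefore set beside these lists. Of all genes outside the score 56.9 percent were lower, and the median difference was -0.03. All 14 measured markers of Kupffer cells and macrophages were lower on average, by a median of 0.21 on the log2 scale. For none of them did the sets separate (all genes: 7.06 percent above, 12.3 percent below). After repeated quantile normalization 13 of these markers were lower and 1 higher. Their mean was -0.10, -0.10 and -0.01 in controls 1, 3 and 5 and 0.22, -0.17 and 0.42 in controls 2, 4 and 6, which puts control 4 lowest of the controls. Without control 6 the difference of that mean shrank from -0.23 to -0.10. Markers of stellate cells and fibroblasts were lower for 10 of 12, with a mean of -0.26, -0.15 and 0.10 against 0.41, -0.02 and 0.25. Col3a1, a fibrillar collagen, was at 7.84, 7.96 and 9.06 against 9.33, 8.87 and 9.16, with control 5 inside the low controls. Endothelial markers were lower for 12 of 14, by a median of only 0.07 on the log2 scale, and for 10 after repeated quantile normalization. Their mean was -0.06, -0.08 and 0.02 against 0.27, 0.07 and -0.01. Lyve1, a receptor of sinusoidal endothelium, was at 6.34, 6.55 and 8.21 against 8.64, 7.92 and 8.22. Its difference of -1.22 was far from the next largest of these markers, -0.24 for Kdr. For the stellate list and for Lyve1, controls 1 and 3 were low and control 5 was not, and the part of these cell types in the interferon and class II values was not tested.

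For the remaining cell types a smaller share of the markers was measured. Of 14 neutrophil and monocyte markers 5 were measured, and Ly6g, Mpo and Elane, which define neutrophils, were below the filter. S100a8, a calcium-binding protein of neutrophils, was at 7.33, 7.15 and 6.18 in the high controls against 5.83, 5.49 and 8.06, and 3.59 to 5.21 in the penicillin arrays. It was thus highest in control 6, and next in controls 1 and 3, and the difference of the neutrophil list was 0.08 with control 6 and 0.39 without it. Over all genes the high arrays lay above the low arrays for 7.06 percent and below them for 12.3 percent. A single separated marker in a list as short as the next ones is thus near the share over all genes. Of lymphoid markers 9 of 15 were measured, 4 were higher and 5 lower, and only Cd8a separated the sets (higher by 0.24). Of bile duct markers 5 of 11 were measured, 3 higher and 2 lower, and only Epcam separated the sets, with 5.72, 5.65 and 5.21 against 6.04, 5.90 and 6.13. Of red cell markers 3 of 12 were measured, none separated the sets, and Alas2 differed by 0.45, but the mean of the 3 did separate them, with 0.06, 0.16 and 0.06 against -0.05, 0.01 and -0.32. Of pancreas, gut, fat and muscle markers 4 of 14 were measured, with Adipoq, Plin1, Pnlip and Cpa1 below the filter, and the sets separated only for Cela1 (higher by 0.75). The mean of these 4 was 0.05, -0.08 and 0.04 against -0.20, -0.10 and -0.09, which also did not overlap.

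**Figure D2:**
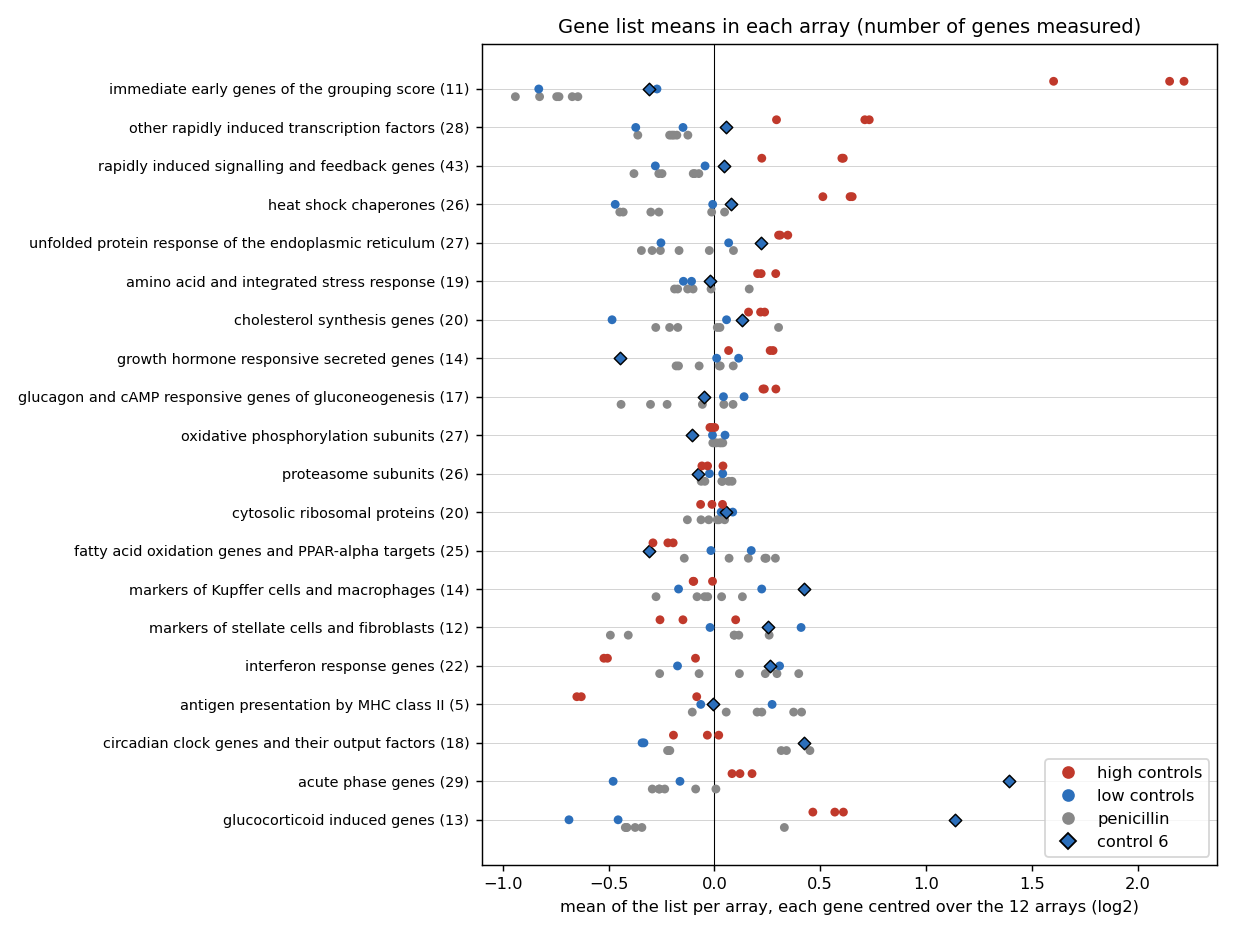
Mean of each gene list in every array, each gene centred over the 12 arrays, on the log2 scale; high controls in red, low controls in blue, penicillin arrays in grey below them, control 6 as a diamond, and the number of genes measured in parentheses. The rapid lists and the chaperones are highest in the 3 high controls, interferon and class II lists are lowest in controls 1 and 3, and the acute phase and glucocorticoid lists are highest in control 6.

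Metabolic lists had smaller median differences than the rapid lists and the heat shock chaperones. Cholesterol synthesis genes were higher for 19 of 20, with a median of 0.31, and 7 had the high arrays above the low arrays (all genes: 7.06 percent). Lss, which closes the sterol ring, was at 10.12, 9.94 and 10.07 against 9.65, 8.95 and 9.87. The list mean was 0.24, 0.16 and 0.22 against 0.06, -0.48 and 0.13, and without control 4 its mean difference went from 0.30 to 0.11. Stard4, a sterol carrier, differed most (0.77), with control 5 (10.51) below control 6 (10.59). Fatty acid oxidation genes and targets of PPAR-alpha were lower for 21 of 25, by a median of 0.06 (all genes: 56.9 percent lower, median -0.03). Their mean was lowest in control 6 (-0.31), and the difference of the list went from -0.18 to -0.31 without it. Srebf1, the driver of fatty acid synthesis, was at 10.44, 10.40 and 10.69 against 11.15, 11.60 and 11.30, while its list had 4 genes higher and 13 lower and a median of -0.06.

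Over all genes outside the score, 43.0 percent were higher and 56.9 percent lower (35.2 to 47.2 percent higher under the other scalings), and counts near these shares say nothing particular of a list. The lists that follow had medians between -0.15 and 0.20. Glucagon and cAMP responsive genes had 11 of 17 higher with a median of 0.07, and bile acid genes 13 of 18 with 0.05. Oxidative phosphorylation (17 higher, 10 lower), proteasome subunits (14 and 12), drug metabolising cytochromes (15 and 9) and urea cycle genes (14 and 7) had medians between 0.01 and 0.05, and with arrays centred on their medians the first 3 turned to 9 and 18, 10 and 16, and 11 and 13. Cytosolic ribosomal proteins were lower for 18 of 20 by a median of 0.08, and ribosome assembly genes had 11 higher and 13 lower, or 13 and 11 after repeated quantile normalization. Circadian clock genes had 9 higher and 9 lower, and no clock gene separated the sets (all genes: 7.06 percent above, 12.3 percent below). Targets of p53 had 5 higher and 9 lower, Nrf2 targets 5 and 9, hypoxia targets 5 and 13, and cytokine and NF-kappaB targets 7 and 12. Cytoskeletal targets of serum response factor had 6 and 12, or 9 and 9 after repeated quantile normalization, although Actg1, a cytoplasmic actin, was higher by 1.02. Proliferation genes (5 and 5), matrix genes (4 and 4) and growth hormone responsive secreted genes (11 and 3) had medians of -0.01, -0.05 and 0.20.

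Control 5 was high for the score and yet unlike controls 1 and 3. Its place for a gene was taken as 0 at the mean of the low controls and 1 at the mean of controls 1 and 3. Over the 38 higher genes its median place was 0.519, with a range from 0.065 (Rnf39) to 1.371 (Cyp17a1), and over the 24 lower genes it was 0.67. It was the lowest of the high controls for 35 of the 38 higher genes, whereas controls 1 and 3 differed from each other by a median of only 0.08. A group of 10 genes had a place under 0.3, which were Rnf39, Myc, Actg1, Rcan1, Dusp4, Tnfrsf12a, Sertad1, Trib1, Maff and Phlda1. Another 12 had a place over 0.7, among them Hspa1a (1.011), Hspa1b (0.857), Hsph1 (0.792), Hspb1 (0.831), Dnajb4 (0.713), Klf4 (0.927) and P4ha1 (1.077). The chaperone genes Dnajb1 (0.515) and Bag3 (0.492) were midway. Genes in which control 5 lay within the low controls, such as Cish (-0.024), overlap and so could not be among the 38. Myc, Trib1 and the rest of the first group thus stood near the low level in control 5, while Hspa1a stood at the full high level and Hspa1b close to it. For the score genes the median place was 0.798, but those values made the score.

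**Figure D3:**
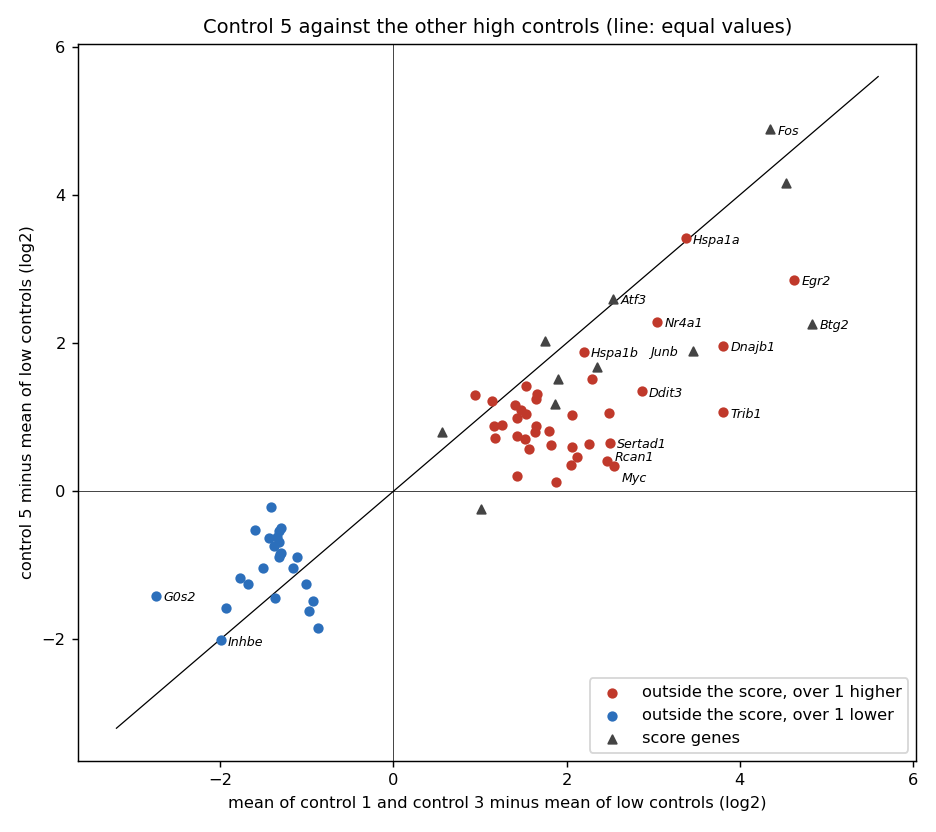
Each point is a gene: its level in control 5 (vertical) and the mean of controls 1 and 3 (horizontal), both minus the mean of the low controls on the log2 scale; the line marks equal values. Most higher genes lie under the line, Hspa1a lies on it, and Fos, a score gene, lies above it.

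In a principal component analysis of the 6 controls, without the score genes, control 5 was again intermediate. The first component, with 41.1 percent of the variance, had controls 1 and 3 at 21.8 and 19.9, control 5 at -0.756, and controls 2, 4 and 6 at -15.5, -13.0 and -12.4. The second, with 30.8 percent, set control 6 (-27.7) apart from controls 2 and 4 (12.5 and 12.3). The third, with 12.6 percent, set control 5 (-18.9) apart from the rest. The 6 controls thus stood as 2 high controls, an intermediate array, 2 low controls and control 6, rather than as 2 even sets of 3.

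**Figure D4:**
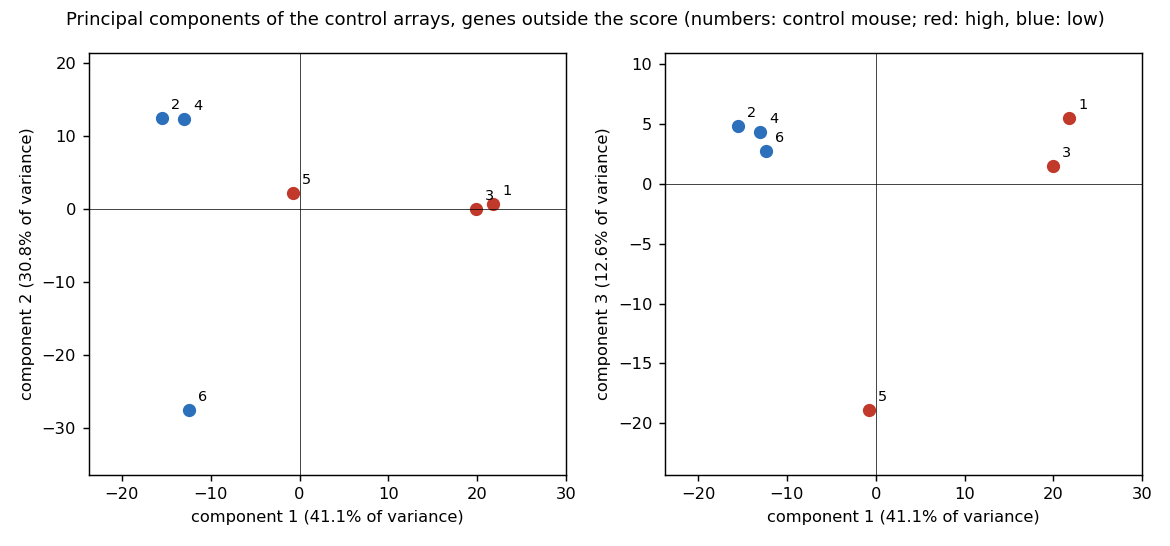
Principal components of the 6 control arrays over genes outside the score, with component 1 on both horizontal axes; red marks high and blue marks low controls, numbered by mouse. Component 1 sets controls 1 and 3 apart, component 2 control 6, and component 3 control 5.

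Control 6, a low control, had the highest acute phase level of the series. The mean of the 29 measured of 31 acute phase genes was 1.39 in control 6, against 0.12, 0.08 and 0.18 in controls 1, 3 and 5 and -0.16 and -0.48 in controls 2 and 4. Control 6 was above all 11 other arrays for 23 of the 29 genes, with a median excess of 0.82 over their mean. Lcn2, an iron-binding defence protein, was at 11.78, against 4.80 to 6.61 in the other controls. Saa2, a serum amyloid protein, was at 13.24, against 7.41 to 9.26 in the other controls, and Saa1 was at 13.93, against 9.20 to 11.19. Orm2, an orosomucoid, was at 12.32 against 7.28 to 8.43. Probesets of the Saa and Orm genes may share sequence with their close relatives. Not all members shared this: Hamp, the iron hormone hepcidin, was at 13.28 in control 6 and 13.44 in control 4, and Crp was higher in all 3 high controls than in the low ones, by 0.12.

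The high minus low difference of the acute phase list therefore turned on this array. Its mean difference was -0.12 with control 6 and 0.45 without it. Metallothioneins, which bind zinc and belong both to this list and to that of glucocorticoid induced genes, show the pattern. Mt2 was at 12.00, 11.92 and 9.65 in controls 1, 3 and 5, at 7.57 and 6.66 in controls 2 and 4, and at 12.57 in control 6. Mt1 was at 13.15, 13.16 and 11.38, at 9.88 and 8.30, and at 13.84. Socs3, the feedback inhibitor of Stat3, was at 8.16, 8.28 and 7.59, at 6.78 and 6.20, and at 9.36. These 3 genes were higher in the high controls than in controls 2 and 4, and higher still in control 6.

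The mean of the 13 measured glucocorticoid induced genes followed the same order, but Lcn2, Mt2 and Mt1 belong to both lists. In control 6 these 3 genes were above the mean of the other arrays by 6.2, 3.8 and 3.1. They thus carried much of the glucocorticoid list mean of control 6, which is not separate from its acute phase level. The list mean was 0.61, 0.57 and 0.46 in the high controls, -0.46 and -0.69 in controls 2 and 4 and 1.14 in control 6, and its difference was 0.55 with control 6 and 1.12 without it. Zbtb16, a factor induced by glucocorticoids, was at 9.15, 9.10 and 8.91, at 6.89 and 7.02, and at 9.53. Dbp, a clock output factor whose level swings through the day, was at 10.62, 10.68 and 8.18, at 7.65 and 6.44, and at 11.96. The mean of the clock list was 0.02, -0.03 and -0.19 in the high controls, -0.33 and -0.34 in controls 2 and 4 and 0.42 in control 6, and its part in these values was not tested. Without control 6 the difference of the clock list went from 0.02 to 0.27, that of the growth hormone responsive list from 0.31 to 0.14, that of the NF-kappaB list from 0.05 to 0.20 and that of the Nrf2 list from -0.02 to -0.15. For the rapid lists control 6 mattered less: without it the difference of the rapid transcription factors went from 0.73 to 0.84. That of the rapid signalling genes went from 0.57 to 0.64, that of the chaperone list from 0.73 to 0.84 and that of the interferon list from -0.50 to -0.44. The count of genes higher beyond 2-fold nevertheless went from 38 to 76 without control 6.

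**Figure D5:**
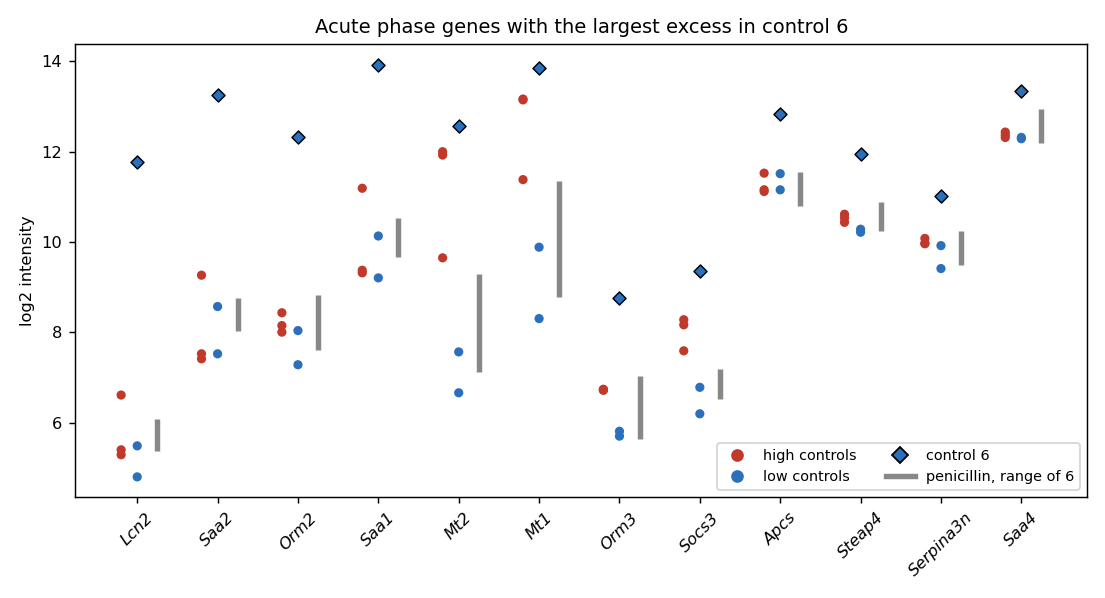
Log2 intensity of the 12 acute phase genes with the largest excess in control 6 (diamonds), beside the high controls (red), the other low controls (blue) and the range of the 6 penicillin arrays (grey bars). Control 6 is the highest array for each gene; for Mt1, Mt2 and Socs3 the high controls are above controls 2 and 4.

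The penicillin arrays belong to neither set and enter the split only through the centring of the score genes, and they allow a test. It asked whether genes outside the score followed it among the 6 penicillin livers, by a limma slope of each gene on the score. The score spanned only 0.295 in these arrays, against 3.05 in the controls, so the test covers a narrow range. At an adjusted p under 0.05, 0 of 11888 genes passed (0.0 percent). An unadjusted p under 0.05 was found for 514, fewer than the share of 0.05 that chance gives. Of these 514, 337 (65.6 percent) had a positive slope. That share was 49.8 percent after repeated quantile normalization and 80.3 percent with arrays centred on their medians. The smallest adjusted p in this limma test was 0.159, for Moxd1, a monooxygenase-like protein, with a slope of -5.05 ± 0.47 (SE). Moxd1 was at 4.41, 4.28 and 9.16 in controls 1, 3 and 5 and at 3.87, 3.89 and 6.76 in controls 2, 4 and 6, so the controls did not follow that direction as sets.

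Among the genes higher in the high controls, Nr4a1 had a slope of 4.61 ± 2.20 (SE) per unit of the score, Igfbp1 7.81 ± 3.16, Hspa1a -2.26 ± 1.82 and Dnajb1 -1.40 ± 1.49. The adjusted p was 0.972 for the first 3 and 0.979 for Dnajb1 by the same limma test. The other genes with the smallest p were Rdh16f2, Cc2d2a, Fam118a, Irs2 and 1810046K07Rik with a positive slope and Aatk, 4930555G07Rik, Pcgf1 and Rcan2 with a negative one, each with an adjusted p of 0.968. Of these, Irs2, an adaptor of the insulin receptor, differed most between the control sets, by 0.53, with overlap. In simulated arrays with the spread of these, a change of 1 over the range of the score was found for 48 percent of changed genes, and a change of 2 for 90 percent. A gene that shifts in proportion to the score as the control sets do would change by less than 1 over 0.295 units, so the test does not show that such genes stay level.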

How the data were processed

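Liver RNA of 12 mice was hybridised to Affymetrix arrays, 1 per mouse, and the authors deposited 1 intensity per probeset, made, per the submitters' processing notes, with RMA; the software and settings behind it are not given in the sources used here. This method makes the distributions of arrays alike, so a shift shared by most genes is removed. As these values were linear, log2 was taken here. Of 45101 probesets, 64 were array controls. The platform annotation pairs 34945 of the rest with 1 gene, 932 with several and 9160 with none, and only the first were named. Symbols followed a RefSeq table of GRCm38.p6 (18032 identifiers matched, 162 not). Probesets with a mean under the median (4.73) were left out, and the probeset with the highest mean stood for a gene, giving 11899 genes. The number of arrays limits the precision, and detection calls were not used here.

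The high and low sets got no test, since they were read from these values. A difference over 1 with no overlap was counted. The slope on the score was fitted in the 6 penicillin arrays with limma 3.58.1 (R 4.3.3, no trend, two-sided, Benjamini-Hochberg over 11888 genes, threshold 0.05) and tested on simulated data, where changes of 3 and 4 over the score range were found for 96 and 100 percent of genes, with 5 false calls. Python 3.11.15, numpy 2.4.6, pandas 2.3.3 and matplotlib 3.10.9 were used. The members and the 39 gene lists (752 genes, 623 measured) were chosen with earlier results of these data known. Genes named were the score genes, Hspa1b, the 15 largest differences without overlap in each direction, 3 genes per list and 5 per direction of the slope; other genes were named after their values were seen. No label says whether mice shared cages, so p-values measure the spread between these mice. Alternatives were other filters, repeated quantile normalization, median centring, means of probesets, a 1.5-fold limit, the penicillin arrays as reference, a variance trend, an unadjusted threshold and leaving out each array.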

Additional observations from a re-analysis of the deposited data

Results flagged for a closer look

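For each named gene and each list, the 6 control arrays and the 6 penicillin arrays were searched for an array far from the rest, one whose gap to the nearest other array, divided by the range of the group, was above Dixon's critical value (0.625 for 6 arrays at the 95 percent level). Chance gives about 1 such group in 20, and 23 of 352 groups (6.53 percent) met it, 10 of them through control 6.

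Control 6 was the highest control for the mean of the acute phase list (1.391), for Saa2 (13.24), Lcn2 (11.78), Tpm1 (8.724) and Cyp3a13 (11.65). It was the lowest control for the mean of the growth hormone responsive list (-0.448), for Gsta2 (10.58), Tubb2a (8.158), Slco1a1 (11.1) and Psmd4 (10.76). Among the other controls, control 4 was the lowest for the mean of the cholesterol synthesis list (-0.484), control 2 the highest for the mean of the hepatocyte markers (0.171) and control 5 the highest for Ighm (9.59), the heavy chain of immunoglobulin M. The hepatocyte mean of control 2 came mostly from Ass1 (8.75, against 5.87 to 7.37 in the other controls).

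Among the penicillin arrays, penicillin 1 was the highest for the mean of the glucocorticoid list (0.330) and for Kcnk5 (9.37), and the lowest for Abcc4 (5.714) and Fzd7 (7.078). Penicillin 2 was the highest for Lss (10.27), and penicillin 3 the lowest for the mean of the rapid transcription factors (-0.362). Penicillin 4 was the highest for Ccn2 (8.532) and the lowest for Glul (12.29), and penicillin 5 was the highest for Gnl3 (9.579) and Angptl8 (10.23).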

How the results depend on the processing

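Of 2215 values recomputed under the alternatives for 188 results, 1546 gene differences and 447 list differences moved by less than the spread between arrays, and 50 and 18 moved by more. The neutrophil and bile duct lists had no member left under the stricter filter on dim probesets. With the penicillin arrays as reference, 3 results whose sets had not overlapped changed sign: the pancreas, gut, fat and muscle list (-0.0595), Tpm1 (0.0273) and Epcam (0.0221). A change of sign was not counted for results whose sets overlapped. Among those, the acute phase list went from -0.12 to 0.32 with the penicillin arrays as reference. The count of genes higher beyond 2-fold (38) was 100 at 1.5-fold and ranged from 35 to 88 with 1 array left out, the most without control 5. The count of lower genes (24) was 13 with that filter, 146 at 1.5-fold, and ranged from 19 to 66 with 1 array left out. Against the penicillin arrays it was 13, of which 5 were shared with the 24, and that of higher genes 46, of which 23 were shared. The difference of the unfolded protein response list (0.31) was 0.486 against the penicillin arrays and ranged from 0.18 without control 2 to 0.41 without control 6. That of the acute phase list (-0.12) ranged from -0.49 without control 4 to 0.45 without control 6, and that of the glucocorticoid list from 0.21 to 1.12. The causes were not tested. The penicillin slope passed for 0 genes under every filter, scaling, probeset rule, trend and omission tried. At an unadjusted p under 0.05 it passed for 514, fewer than the share of 0.05 that chance gives. No paired analysis was possible because the high and low controls share no replicate number.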

Other observations

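After the values were seen, genes named Zfp with a number, most of which encode zinc finger proteins, were counted. Of 228 measured outside the score, the 3 high controls lay below the 3 low controls for 42 (18.4 percent) and above them for 12 (5.26 percent), against 12.3 and 7.06 percent over all genes, and their median difference was -0.04. The family was picked from these same arrays, so the count has no test.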
